A study of Bos taurus with 129 samples.

Results

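The genes described here are 8 genes of fatty acid oxidation that are known targets of the peroxisome proliferator-activated receptors (PPARs), among 32395 genes in the deposited table. They are CPT1A, PDK4, SLC25A20, ACADVL, HADHA, ACSL1, ETFDH and PLIN2, which were selected by symbol after their time course in these libraries was known. Each of the 8 passed the filter on low counts, which left 18937 genes for testing. Whole blood RNA was sequenced from 26 commercial crossbred steers at 5 bleedings, on day 0 of the trial and then on days 13, 28, 45 and 60, with 1 library missing because the authors had removed that of animal 48 at day 13. Of the steers, 12 were labelled disease-free (healthy) and 14 were labelled as having bovine respiratory disease (BRD) during the trial; the day of diagnosis was not used here. INR steers (4 healthy, 7 BRD) received Cu, Co, Mn and Zn as sulfates, AAC steers (4 healthy, 4 BRD) received amino acid-complexed sources, and COMBO steers (4 healthy, 3 BRD) received the complexed sources with a mineral drench before shipment, on day 0 and along with any treatment for illness. All of the cattle had been transported, vaccinated and dewormed at or near arrival. They were vaccinated again between the bleedings of days 13 and 28. Day, diet, recovery from transport, vaccination and age therefore cannot be told apart. Supplement was given by pen, and the healthy COMBO steers stood in pen 5 and the BRD COMBO steers in pen 6. The labels give 1 pen per steer, but the steers were moved among the pens at intervals during the trial.

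Long-chain fatty acids are used as fuel in mitochondria after they have been activated to acyl-CoA, passed across the inner membrane as carnitine esters and shortened by beta-oxidation. The PPARs are nuclear receptors that bind fatty acids and raise the transcription of genes for these steps, which is best known in liver and muscle during fasting. CPT1A is the outer membrane carnitine palmitoyltransferase that sets the entry of fatty acids, SLC25A20 is the carnitine/acylcarnitine carrier of the inner membrane, and PDK4 is a kinase that switches off pyruvate dehydrogenase and so spares glucose. ACSL1 activates fatty acids, ACADVL and HADHA act in the first and later steps of long-chain beta-oxidation, ETFDH passes the electrons to the respiratory chain, and PLIN2 coats lipid droplets.

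Levels are given as CPM, the counts of a gene relative to the counts of its library after scaling by the trimmed mean of M-values (TMM), and were compared within a gene only, since these values are not corrected for transcript length. Total counts per library ranged from 31613545 to 61692136, with a median of 44268685. The fewest counts of any of the 8 genes in a library were 144, for PDK4, so counting error was small beside the differences between animals. Markers of neutrophils, monocytes, T cells, B cells, NK cells and platelets were present in every library apart from FCGR1A at 0 in 2 libraries and KLRK1 at 0 in 1 library, as the whole blood label implies. The libraries least like the others were those of animal 50 at day 13 and animal 21 at day 13, with median correlations of 0.943 and 0.949 to the other libraries against a median of 0.966. The RNA of animal 40 at day 60 was of lower integrity by the account of the authors.

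The level of CPT1A, PDK4 and SLC25A20 was higher on day 0 than on each later day in every steer. These time courses belong to the reason the genes were chosen and are given as a description with no test. On day 0 CPT1A ranged from 71.2 to 384 CPM with a median of 201 over 26 libraries, and on days 13 to 60 it ranged from 35.03 to 102.9 CPM with medians of 58.7, 60.8 and 57.5 CPM on days 28, 45 and 60. Of the day 0 libraries, 24 of 26 lay above every later library. The exceptions were animal 18 at 71.2 CPM and animal 48 at 102.6 CPM. Within animals the median fold difference was 3.06-fold lower at day 13 than at day 0 (25 of 25 animals lower), 3.33-fold lower at day 28, 3.14-fold lower at day 45 and 3.44-fold lower at day 60 (26 of 26 animals lower each time).

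Of the 8 genes, PDK4 had the widest range as a ratio of its highest to its lowest level. On day 0 it ranged from 26.8 CPM in animal 18 to 325 CPM in animal 6, with a median of 97.3 CPM. On the later days it ranged from 3.9 to 44.7 CPM with a median of 13.7 CPM, and 25 of the 26 day 0 libraries lay above every later library. The exception was again animal 18. Within animals, PDK4 was lower than on day 0 by a median of 6.55-fold at day 13, 8.25-fold at day 28, 7.05-fold at day 45 and 8.01-fold at day 60. The smallest difference at day 60 was 1.52-fold in animal 18, and the largest was 23.46-fold in animal 43. When the genes tested were ordered by their modelled change from day 0, PDK4 stood at place 15 from the lowest at day 13 and at place 9 at day 28, whereas CPT1A stood at places 60 and 72. Both genes were chosen with these courses known, so their places are a description only.

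SLC25A20, the carnitine carrier, differed by less, but in as many steers. It ranged from 32.7 to 67.99 CPM on day 0 (median 46.1) and reached at most 34.9 CPM on the later days (median 23.2), with 25 of 26 day 0 libraries above all of the later ones. The day 0 library below the highest later one was that of animal 18. The median within-animal difference was 1.97-fold at day 13, 1.85-fold at day 28, 1.90-fold at day 45 and 1.955-fold at day 60. In each of the 3 genes the later days lay below day 0 with little overlap.

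**Figure D1:**
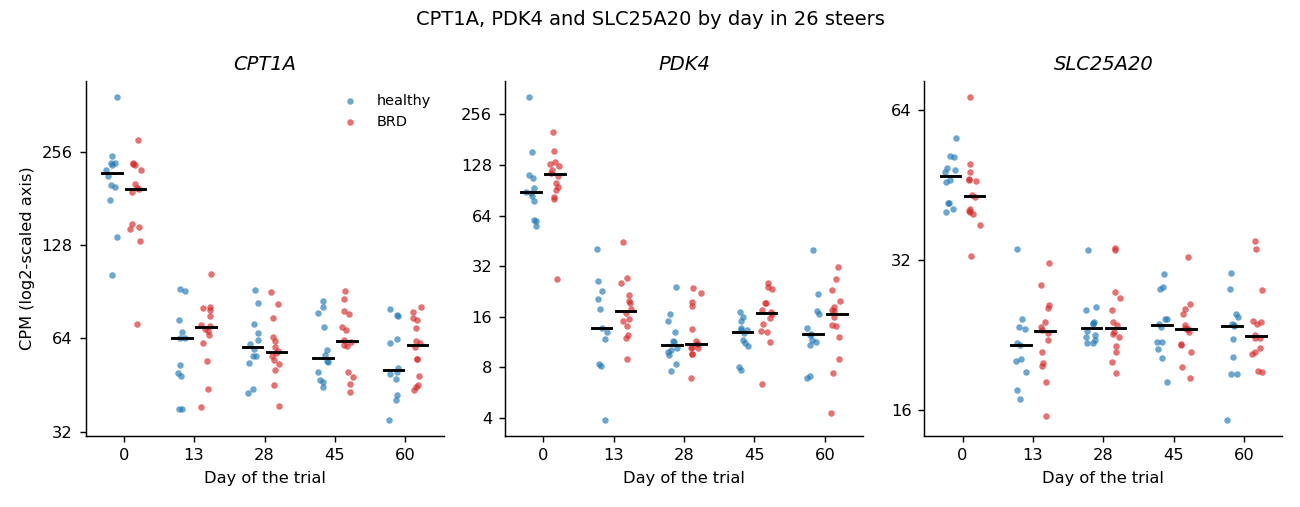
CPM of CPT1A, PDK4 and SLC25A20 (vertical axes, log2-scaled) by day of the trial, with 1 point per library, healthy steers in blue, BRD steers in red and black bars at the group medians. The day 0 points of each gene lie above nearly all later points, with animal 18 at 71.2 CPM for CPT1A and 26.8 CPM for PDK4 as the lowest of day 0.

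Differences among the later days were smaller and went in both directions. From day 13 to day 60, CPT1A was lower in 14 of 25 animals and higher in 11, with a median log2 change of -0.15. PDK4 was lower in 13 and higher in 12 of 25 animals over the same interval, although it was lower in 20 of 25 animals at day 28 than at day 13 (median log2 change -0.42) and higher in 17 of 26 animals at day 45 than at day 28 (0.29). SLC25A20 was lower in 11 and higher in 14 of 25 animals at day 60 than at day 13. Over all libraries, day accounted for 76.1% of the variance of log2 CPM of CPT1A, 77.2% of that of PDK4 and 74.3% of that of SLC25A20. Within the later days alone, day accounted for 2.39%, 5.24% and 3.40%, and animals for 69.9%, 49.9% and 49.7%, in the same order. These shares were not adjusted for the number of groups. There are more animals than days, which by itself raises the share of animals.

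The genes of the enzymes further along the pathway, and of fatty acid activation, differed little between day 0 and the later days. ACADVL had a median of 137 CPM on day 0, 118.1 CPM on day 28, 130 CPM on day 45 and 123.5 CPM on day 60, and it was lower than on day 0 in 23 of 25 animals at day 13 by a median of 1.17-fold. Its range on day 0 (117.8 to 218 CPM) overlapped its later range (96.5 to 162 CPM). HADHA had medians between 88.3 and 94.36 CPM on the 5 days and was lower than on day 0 in 16 of 25 animals at day 13. For ETFDH the medians lay between 11.6 and 12.4 CPM, with 16 of 25 animals lower at day 13. ACSL1 had medians between 28.2 and 29.1 CPM, and 13 animals were lower and 12 higher at day 13 than at day 0. Day accounted for 22.6% of the variance of ACADVL, 4.09% of that of HADHA, 3.54% of that of ETFDH and 0.0596% of that of ACSL1. For HADHA and ACSL1, differences between animals accounted for 65.96% and 68.04%, again with no adjustment for the larger number of animals than days.

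PLIN2 had a different course. Its medians were 47.9 CPM on day 0, 40.9 CPM on day 13, 40.6 CPM on day 28, 45.2 CPM on day 45 and 40.5 CPM on day 60. A group of 3 steers with the BRD label stood far above the rest on day 0, namely animal 43 at 160 CPM, animal 18 at 159.8 CPM and animal 54 at 133 CPM, and the next highest was animal 6 at 87.9 CPM. Animals 18 and 54 were also among the 3 lowest of the 26 for CPT1A on day 0, at 71.2 and 131.5 CPM, whereas animal 43 had 201 CPM. Within animals PLIN2 was lower than on day 0 in 17 of 25 at day 13 and in 23 of 26 at days 28 and 60, but it was higher at day 45 than at day 28 in 22 of 26 animals. Animal 16 had 100 CPM at day 13, the highest of the later libraries, after 42.3 CPM on day 0.

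**Figure D2:**
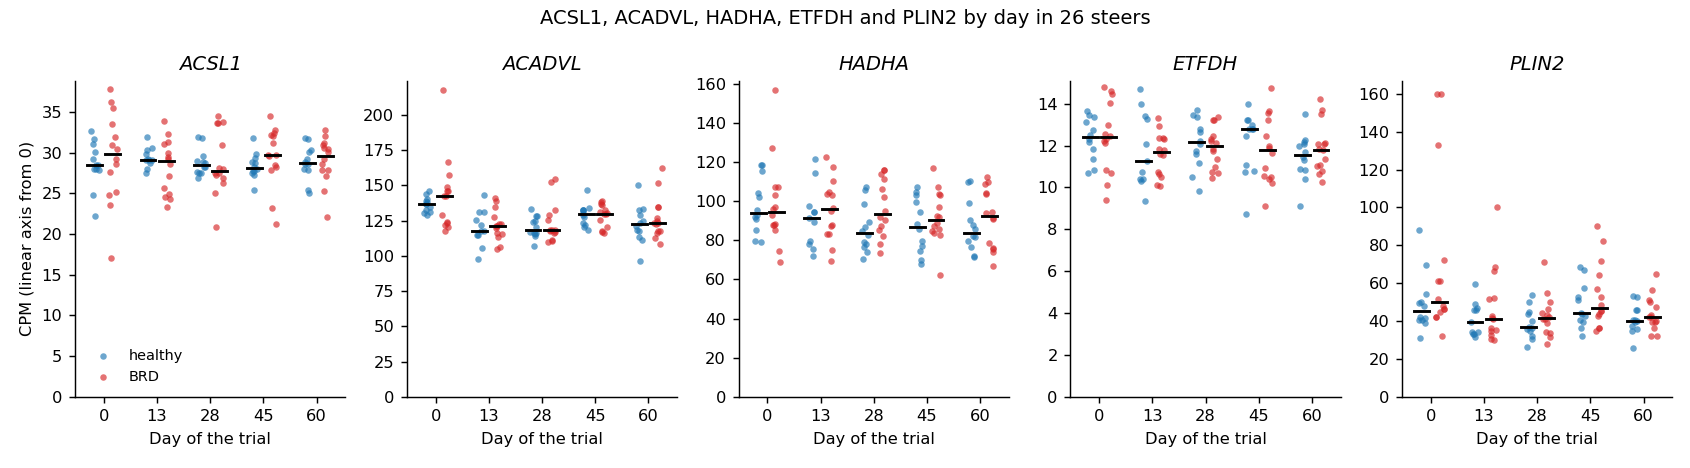
CPM of ACSL1, ACADVL, HADHA, ETFDH and PLIN2 (vertical axes, linear from 0) by day of the trial, with 1 point per library, healthy steers in blue, BRD steers in red and black bars at the group medians. The days overlap for all 5 genes, and the 3 PLIN2 points from 133 to 160 CPM on day 0 are animals 43, 18 and 54.

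The share of all tested genes that were called different from day 0 by edgeR's quasi-likelihood test with animal as a block, at a false discovery rate (FDR) under 0.10, was large. At day 13, 17.1% were lower and 17.3% were higher, and in either direction 34% were called at day 28, 27.5% at day 45 and 30.7% at day 60. The median log2 change over all genes lay between -0.0031 and 0.0104, with quartiles of -0.12 and 0.17 at day 13. In the same fit the log2 change at day 13 was -1.62 ± 0.07 (SE) for CPT1A, -2.63 ± 0.15 for PDK4, -1.02 ± 0.06 for SLC25A20, -0.34 ± 0.10 for PLIN2 and -0.20 ± 0.04 for ACADVL. It was -0.08 ± 0.04 for HADHA, -0.08 ± 0.04 for ETFDH and 0.01 ± 0.03 for ACSL1. No test is attached to these values.

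Blood cell markers, whose lists were chosen with earlier results of these data known, moved with day as well. Of 5 monocyte markers, 4 were called lower at day 13 than at day 0, among them CD163 (log2 change -1.60 ± 0.17, FDR = 1.29e-11), CD14 (-1.15 ± 0.12, FDR = 4.04e-12) and VCAN (-1.05 ± 0.14, FDR = 1.27e-08). CSF1R (-0.20 ± 0.09, FDR = 0.112) was not called. The summed monocyte markers ranged from 449 to 2625 CPM on day 0 (median 984) and from 419 to 857 CPM on day 13 (median 593). Of 7 neutrophil markers 4 were called lower, the 6 T cell markers had log2 changes from -0.18 (CD3G) to -0.03 (CD2) with an FDR from 0.262 to 0.793, and all 5 platelet and all 6 erythroid markers were called higher. Of 4 NK cell markers 2 were called lower, of 5 B cell markers 1 was called higher, and of 3 eosinophil markers 1 was lower and 1 higher. Of all genes, 17.1% were called lower and 17.3% higher at day 13. The erythroid sum had a median of 138 CPM on day 0 and 2470 CPM on day 13, when it reached 27940 CPM in 1 library. In whole blood, fewer cells of a type and less RNA per cell cannot be told apart, and the part of these cell markers in the courses of CPT1A, PDK4 and SLC25A20 was not tested.

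The receptor genes had other courses than CPT1A, PDK4 and SLC25A20. PPARA, the receptor best known for fatty acid oxidation, had a median of 23.7 CPM on day 0 and 28.2 CPM on day 13, and it was called higher on all 4 later days (log2 change 0.28 ± 0.06 at day 13, FDR = 2.14e-04; 0.25 at day 60, FDR = 8.15e-04). PPARD, the form expressed most broadly, had a median of 75.3 CPM on day 0 and 68.1 CPM on day 13 (log2 change -0.10 ± 0.05, FDR = 0.172) and was called lower from day 28 (-0.19, FDR = 0.00332). PPARG, the adipocyte form, was at 0 in 110 libraries. Of the 9 measured receptors and co-regulators, 1 was called lower at day 13 (the co-repressor NCOR1, -0.07 ± 0.02) and 2 higher (PPARA and the co-activator NCOA1, 0.11 ± 0.04).

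Of the 86 measured genes on the lists of the wider pathway, which hold none of the 8 genes, 23 were called lower and 18 higher at day 13, and the median log2 change was -0.03. As shares of the measured genes these are 26.7% lower and 20.9% higher, beside 17.1% and 17.3% of all genes. In either direction 44 of 86 were called at day 28 (51.2%, beside 34% of all genes), 36 at day 45 (41.9%, beside 27.5%) and 38 at day 60 (44.2%, beside 30.7%). Both directions were found in the wider pathway on each of these days. The lists were chosen with earlier results of these data known, so these shares and the FDRs of the listed genes are descriptions.

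The genes of fatty acid uptake and activation split evenly, with 3 of 12 lower and 3 higher at day 13. CD36, the fatty acid translocase, had a median of 1.49 CPM on day 0 (range 0.103 to 12.33) and 0.166 CPM on day 13 (range 0 to 1.13), with a log2 change of -3.26 ± 0.31 (FDR = 7.09e-14), but it was at 0 in 18 libraries and had a median of 10 counts, so its fold rests on few counts. SLC27A1, a fatty acid transporter, was lower by less (-0.17 ± 0.04). ACSL3, which activates fatty acids at the endoplasmic reticulum and lipid droplets, was higher (0.47 ± 0.04, FDR = 1.21e-13), as was the fatty acid binding protein gene FABP5 (0.38 ± 0.09, FDR = 0.00108). In the carnitine shuttle 2 of 6 genes were lower and 3 higher. CPT1B, the muscle form of the enzyme that CPT1A encodes, was higher (0.34 ± 0.10, FDR = 0.00871), as were CROT, the carnitine octanoyltransferase of peroxisomes (0.42 ± 0.11, FDR = 0.00154), and the carnitine transporter gene SLC22A5 (0.10 ± 0.04). The carnitine acetyltransferase gene CRAT (-0.09 ± 0.03) and CPT2, the inner membrane partner of CPT1A (-0.18 ± 0.08, FDR = 0.0749), were lower, by far less than CPT1A and SLC25A20 in the same fit.

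Of 15 mitochondrial beta-oxidation genes 5 were lower and 2 higher at day 13, with log2 changes between -0.31 (ETFB) and 0.18 (ACAD9) among those called. ACADS, the short-chain acyl-CoA dehydrogenase, had a log2 change of -0.21 ± 0.06, the thiolase gene ACAA2 -0.17 ± 0.05 and HADHB, the partner subunit of HADHA, -0.11 ± 0.03, whereas ACAD9 had 0.18 ± 0.04. Of 9 peroxisomal genes 4 were lower and 5 were not called. The lower ones were HSD17B4 (-0.21 ± 0.04, FDR = 6.88e-06), ACAA1 (-0.22 ± 0.05), SCP2 (-0.14 ± 0.03) and EHHADH (-0.12 ± 0.03). Of these 4, HSD17B4 and ACAA1 were not called at days 45 and 60 (FDR from 0.233 to 0.807). At the pyruvate dehydrogenase switch, PDK1 (0.32 ± 0.08) and the phosphatase gene PDP2 (0.15 ± 0.03) were higher and PDK3 was lower (-0.14 ± 0.05), beside a log2 change of -2.63 for PDK4.

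Among genes of ketone bodies and malonyl-CoA, the inhibitor of CPT1A, 4 of 7 were higher and 3 were not called. The higher ones were BDH1, which interconverts the ketone bodies (0.66 ± 0.10, FDR = 6.72e-07), OXCT1, which starts their use (0.08 ± 0.03), and both acetyl-CoA carboxylase genes, which make malonyl-CoA, ACACA (0.16 ± 0.03, FDR = 2.05e-04) and ACACB (0.67 ± 0.19, FDR = 0.00599). Of 13 genes of lipid droplets and lipolysis 4 were lower and 2 higher. G0S2 and HILPDA, which both inhibit the lipase ATGL, had log2 changes of -1.55 ± 0.26 (FDR = 5.01e-06) and -1.56 ± 0.25 (FDR = 8.42e-07) and were called lower, as was the droplet coat gene PLIN3 (-0.45 ± 0.08). The other gene called lower was ABHD5 (-0.15 ± 0.06, FDR = 0.0529). LIPE, the hormone-sensitive lipase, was higher (0.23 ± 0.06), and so was PLIN4, another droplet coat gene, with a wide error (1.97 ± 0.81, FDR = 0.0605). Of 6 other PPAR targets, ANGPTL4, an inhibitor of lipoprotein lipase (-0.42 ± 0.10), VNN1 (-0.50 ± 0.16) and UCP2 (-0.34 ± 0.09) were lower and 3 were not called.

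**Figure D3:**
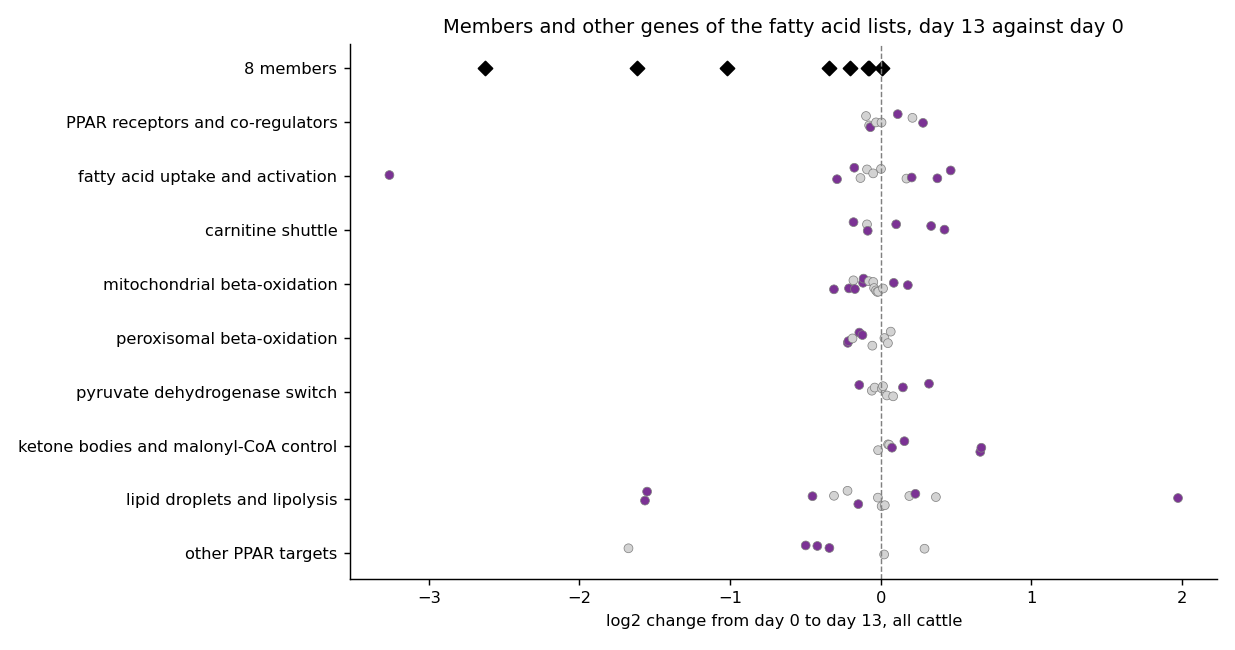
Log2 change from day 0 to day 13 over all cattle (horizontal axis) for the 8 genes (black diamonds) and for 84 genes of the wider pathway in rows by list, purple where called at an FDR under 0.10 and grey where not called. The genes PPARG and FABP4 are not drawn because their standard errors were above 1; most points lie near 0, with CD36 (-3.26) farthest to the left.

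Healthy and BRD steers were compared on each day as the mean of the 3 within-supplement differences. This fit had no term for animal, so the repeated bleedings of a steer counted as separate libraries in its estimate of spread. Its intervals may therefore be too narrow and its p-values too small. None of the 8 genes was called on any day, so that 0 of 40 tests passed with edgeR, 0 with DESeq2 and 0 with limma voom, and 1 of 40 had an unadjusted p under 0.05. The share of all genes called was 0.0158% on day 0, 0% on day 13, 0.00528% on day 28, 0% on day 45 and 0.00528% on day 60, and on the days with 0 genes from 716 to 800 had an unadjusted p under 0.05, DESeq2 called 31 to 36 and limma voom 0. CPT1A on day 0 ranged from 102.6 to 384 CPM in healthy steers (median 218) and from 71.2 to 280 CPM in BRD steers (median 195). The groups overlapped, and the log2 difference (BRD minus healthy) was -0.22 (95% interval -0.50 to 0.06, FDR = 0.833). On the later days this difference for CPT1A lay between -0.06 and 0.15.

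PDK4 on day 0 ranged from 55.9 to 325 CPM in healthy steers (median 88.02) and from 26.8 to 201 CPM in BRD steers (median 112.7), with a log2 difference of -0.03 (interval -0.51 to 0.45, FDR = 1.0). Its largest difference was on day 45, when healthy steers ranged from 7.66 to 17.1 CPM (median 13.1) and BRD steers from 6.37 to 25.3 CPM (median 16.8), a log2 difference of 0.47 (interval -0.01 to 0.96, FDR = 1.0). The PLIN2 levels on day 0 ranged from 30.8 to 87.9 CPM in healthy and from 32.22 to 160 CPM in BRD steers, and the log2 difference was 0.52 (interval 0.19 to 0.85, unadjusted p = 0.00277, FDR = 0.339). Without animal 16 it was 0.65 and passed the threshold (FDR = 0.0156), and within pens 2, 3, 4 and 8, the only pens holding steers of both labels, it was 0.15 (FDR = 0.666). Calls over all genes rose as well without animal 16, to 309 summed over the 5 days against 5 with every animal. For ACADVL, HADHA, ACSL1, ETFDH and SLC25A20 the differences on all 5 days lay between -0.07 and 0.19. Their intervals reached no further than -0.26 and 0.38, so differences larger than this on the log2 scale were outside the 95% intervals, whereas for PDK4 the intervals reached from -0.51 to 0.96.

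Within pens 2, 3, 4 and 8, with pen as a term, ACSL1 was called higher in BRD steers on day 0 (log2 difference 0.23 ± 0.07, FDR = 0.0712), against 0.0012 in all pens. On the same day CPT1A had a difference of 0.24 ± 0.17 (FDR = 0.487) within these pens, of opposite sign to that in all pens, and PDK4 had 0.59 ± 0.31 (FDR = 0.327). These pens hold none of the COMBO steers, and 666 of the 18554 genes tested there were called on day 0.

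**Figure D4:**
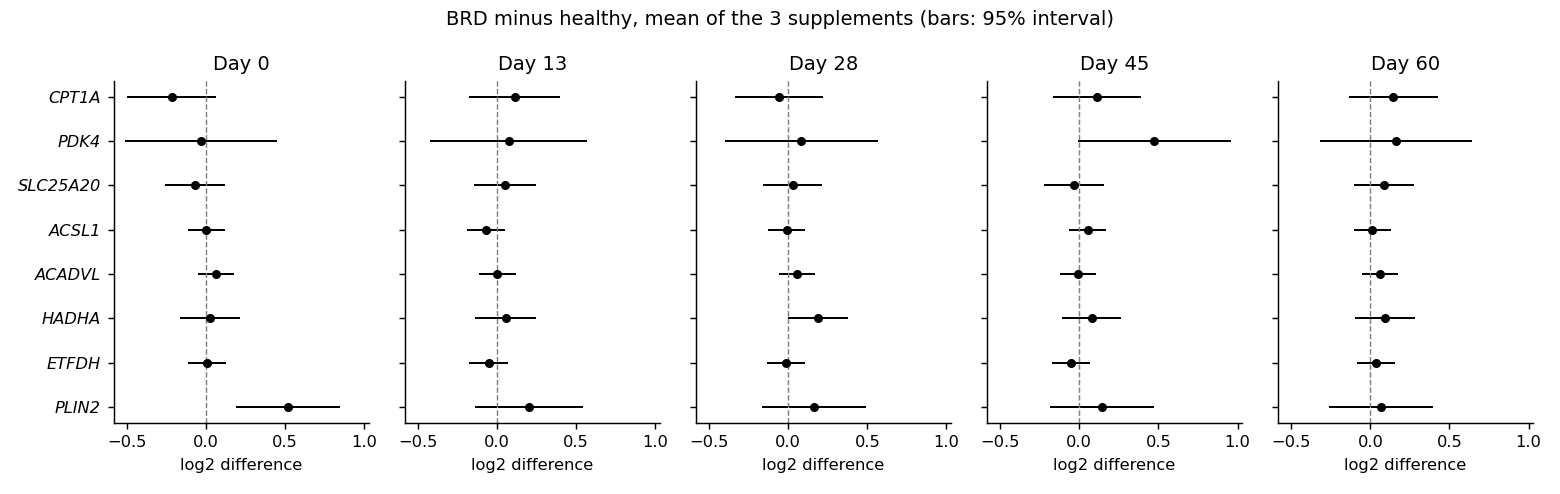
Log2 difference in level between BRD and healthy steers (horizontal axes) for the 8 genes (rows) on each day (panels), as the mean of the 3 supplements, with bars for the 95% interval. Nearly all bars cross 0; that of PLIN2 on day 0 (0.19 to 0.85) does not, with an FDR of 0.339.

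Whether the change from day 0 differed between BRD and healthy steers was tested within animals. With edgeR 0% of the 18937 genes passed at each of days 13, 28, 45 and 60, whereas 641 to 936 genes had an unadjusted p under 0.05, DESeq2 called 36 to 44 and limma voom 0. Of the 32 tests on the 8 genes, 0 passed with edgeR, DESeq2 or limma voom, and 5 had an unadjusted p under 0.05. The 4 days share the day 0 libraries, so their values are not separate evidence. CPT1A was lower at day 13 by a median of 3.58-fold in 11 healthy steers and of 2.78-fold in 14 BRD steers, and the difference of the log2 changes was 0.42 (interval 0.17 to 0.68, unadjusted p = 0.00174, FDR = 1.0). It was 0.17 at day 28 (FDR = 0.960), 0.34 at day 45 (FDR = 0.986) and 0.41 at day 60 (FDR = 1.0). Without animal 16, a BRD steer given COMBO, the difference for CPT1A passed the threshold at day 13 (0.58, FDR = 0.0303) and day 60 (0.54, FDR = 0.0405), as did that for PLIN2 at day 13 (-0.67, FDR = 0.0717). Over all genes, 181 calls were made without animal 16, summed over the 4 days, against 0 with every animal. For PDK4 the difference lay between -0.003 and 0.36 on the 4 days, with intervals from -0.54 to 0.89.

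The 3 supplements were compared in pairs on each day, as the mean of the healthy and the BRD difference, which gave 15 comparisons and 120 tests on the 8 genes. Steers were the replicates, although the AAC steers came from pens 2 and 8, the COMBO steers from pens 5 and 6 and the INR steers from pens 3, 4 and 7. The p-values, FDRs and standard errors therefore do not cover the spread between pens, and the fit again had no term for animal. Of the 120 tests, 1 passed the threshold, PLIN2 for AAC against COMBO on day 0, and 12 had an unadjusted p under 0.05. Among all 18937 genes tested, the number with such a p ran from 711 (AAC against COMBO, day 45) to 2532 (AAC against COMBO, day 13) per comparison. It was 2010 for AAC against COMBO on day 0. The 12 include ETFDH for AAC against INR on day 13, a gene chosen with that difference known in healthy steers. DESeq2 called 2 and limma voom 0. In AAC steers PLIN2 on day 0 was 40.6, 41.8, 49.4 and 50.1 CPM in the healthy and 32.22, 42.2, 46.3 and 61.3 CPM in the BRD steers. In COMBO steers it was 30.8, 47.8, 54.1 and 87.9 CPM in the healthy and 42.3, 133 and 159.8 CPM in the BRD steers, so the groups overlapped and 3 COMBO steers lay above every AAC steer. The log2 difference (AAC minus COMBO) was -0.79 ± 0.22 (FDR = 0.0871), beside 0.565% of all genes called in this comparison. With limma voom, which allowed for a correlation within animals, it was -0.66 ± 0.22 (FDR = 0.195). With edgeR it was -1.30 ± 0.32 in BRD steers alone (FDR = 0.00392) and -0.28 ± 0.29 in healthy steers alone (FDR = 0.812). The difference between these was not tested. Leaving out animal 18 gave -0.61 (FDR = 0.410), animal 54 -0.72 (FDR = 0.284) and animal 6 -0.63 (FDR = 0.208), and the call was also lost without each of animals 3, 9, 21, 23, 31, 34, 42, 46 and 49, although the log2 difference then stayed between -0.88 and -0.73. Because the BRD COMBO steers shared pen 6, supplement, pen and animal cannot be told apart there. Supplement was given by pen in the other groups too, so supplement and pen cannot be told apart in any of the 15 comparisons. The first bleeding fell on the day of pen enrolment, and the authors do not take differences of that day as effects of supplementation, although the COMBO steers had been drenched before shipment.

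**Figure D5:**
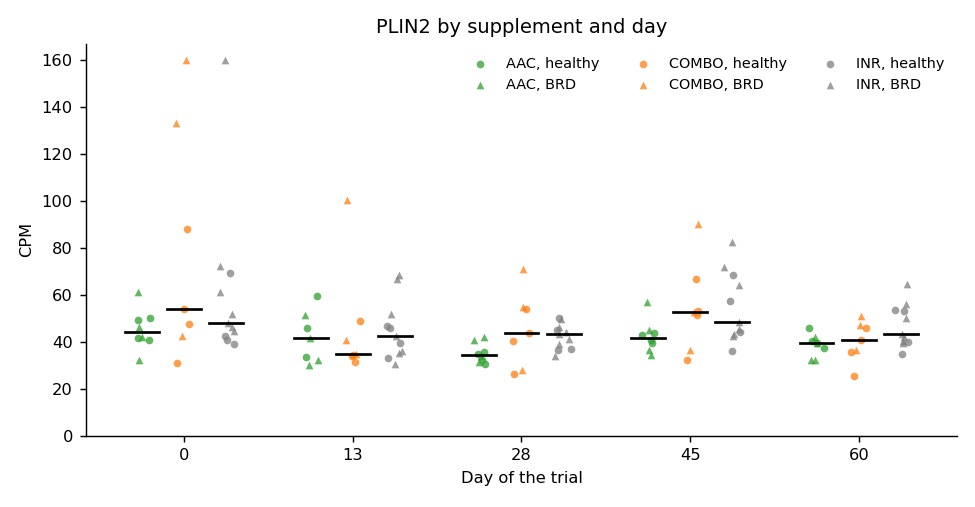
CPM of PLIN2 (vertical axis, linear from 0) by day of the trial for AAC (green), COMBO (orange) and INR (grey) steers, circles healthy and triangles BRD, with black bars at the medians of each supplement. On day 0 the BRD COMBO steers at 133 and 159.8 CPM and the BRD INR steer at 160 CPM stand above all others.

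The same comparison of AAC with COMBO on day 0 gave ACSL1 a log2 difference of 0.25 ± 0.08 (FDR = 0.126), in the direction opposite to PLIN2. DESeq2 called it (FDR = 0.0760), as did the fit without animal 16 (0.35, FDR = 0.00346) and those without animal 41, 43 or 48 (FDR from 0.0842 to 0.0948). On day 13, when 0.929% of all genes were called between AAC and COMBO, 5 of the 8 genes were higher in AAC at an unadjusted p under 0.05 (13.4% of all genes were in either direction), of which PDK4 had the largest difference (0.76 ± 0.33, FDR = 0.303), but none passed the adjustment (FDR from 0.216 to 0.343). PDK4 on that day was 8.34, 22.9 and 26.0 CPM in healthy AAC steers and 3.9, 8.10, 17.8 and 20.40 CPM in the 4 healthy COMBO steers, 15.4 to 27.03 CPM in the 4 BRD AAC steers and 9.0 to 14.1 CPM in the 3 BRD COMBO steers. BRD steers of the 2 groups did not overlap for PDK4, with AAC higher. The same held for ACSL1 (31.08 to 33.91 CPM in AAC, 24.28 to 24.85 CPM in COMBO). It held for ACADVL too (119.6 to 141.0 CPM against 106.5 to 115.7 CPM). With AAC higher, this was so for 10.6% of all genes, a share that leaves out genes with COMBO higher and no overlap. Healthy steers overlapped for each of these members. On day 13 ACSL1 was called in BRD steers alone (0.39 ± 0.11, FDR = 0.0347), among 1759 of 18937 genes called there, whereas 0 genes were called in healthy steers alone. In BRD steers alone the members called for AAC against COMBO on day 0 were PLIN2, ACSL1 (0.54 ± 0.11, FDR = 7.35e-04), ACADVL (0.29 ± 0.11, FDR = 0.0719) and PDK4 (1.18 ± 0.48, FDR = 0.0986). They were among 2911 of 18937 genes called there, between 4 AAC steers and 3 COMBO steers that shared pen 6. In healthy steers alone the log2 differences were -0.04 for ACSL1, -0.02 for ACADVL and -0.56 for PDK4, none of them called (FDR from 0.716 to 0.985).

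In the other 13 supplement comparisons 0 of the 8 genes were called by edgeR, DESeq2 or limma voom, and 5 tests had an unadjusted p under 0.05, of which PDK4 for COMBO against INR on day 13 had the largest difference (-0.73 ± 0.31, FDR = 0.858). In each of these 13 comparisons, 711 to 1954 of the 18937 genes tested had an unadjusted p under 0.05. The shares of all genes called for AAC against INR were 0% on day 0, 0.0422% on day 13, 0.0106% on day 28 and 0% on days 45 and 60. For COMBO against INR they were 0% on days 0, 13, 28 and 45 and 0.00528% on day 60, and for AAC against COMBO they were 0.0317% on day 28 and 0% on days 45 and 60. In the 9 comparisons with 0 genes called, 711 to 1250 genes had an unadjusted p under 0.05, DESeq2 called 34 to 78 and limma voom 0 to 4. Among the 5 tests with an unadjusted p under 0.05 was that of ETFDH for AAC against INR on day 13 (0.19 ± 0.07, FDR = 0.352). ETFDH was chosen with its difference between healthy AAC and INR steers known, which that test averages in. The test and the values of ETFDH there are therefore a description. On day 13 it ranged from 13.25 to 14.7 CPM in 3 healthy AAC steers and from 9.35 to 10.8 CPM in 4 healthy INR steers, which did not overlap (7.48% of all genes were likewise higher in AAC with no overlap), and from 10.5 to 12.9 CPM in 4 BRD AAC steers and from 10.1 to 13.33 CPM in 7 BRD INR steers, which did.

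The genes whose log2 CPM ran most closely with CPT1A over all libraries were PDK4 (Pearson's r = 0.922), KLF11 (0.922), FCGRT (0.900), KLF10 (0.826) and SLC25A20 (0.824), out of all tested genes. For PDK4 they were CPT1A, FCGRT (0.870), KLF11 (0.867), LOC514978 (0.851) and the monocyte marker CD14 (0.848). These coefficients carry the shift between day 0 and the later days and the repeated bleeding of each steer, and are descriptions. With the mean of each day removed, r was 0.684 for CPT1A with PDK4, 0.684 with KLF11 and 0.324 with SLC25A20, and 0.700 for PDK4 with CD14. Among the 26 day 0 libraries r was 0.795 for CPT1A with PDK4 and 0.693 with SLC25A20. Among the later libraries, within days, it was 0.649 and 0.218. ACSL1, which showed no course over days, had an r of 0.615 with CPT1A within days, and PLIN2 had -0.504 with ACSL1 and -0.320 with CPT1A. Animal 18 was the lowest of the 26 steers on day 0 for CPT1A, PDK4, SLC25A20, HADHA and ACSL1 and second highest for PLIN2.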

How the data were processed

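RNA from whole blood in Tempus tubes was sequenced from 26 steers on 5 days (129 libraries). The authors trimmed the read pairs (Trimmomatic 0.39), aligned them with HISAT2 (release 2.1.1 in the submitters' processing notes) to the ARS-UCD1.3 assembly, and ran StringTie 2.2.0. The deposited gene counts came from its prepDE step, which derives them from mean coverage and a read length of 150 rather than by tallying reads. They carry no normalization. Each column was matched to its sample by name, and 1 library stands for each animal and day.

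The counts were analysed in R 4.3.3 with edgeR 4.0.16 after filterByExpr over the 30 groups of disease label, supplement and day, with TMM factors, a common dispersion (biological coefficient of variation of 39.0%, or 27.8% with animal as a block), quasi-likelihood F-tests, Benjamini-Hochberg adjustment over all tested genes within each comparison and an FDR under 0.10. BRD against healthy and the supplements were compared in 1 fit of 30 means, and changes from day 0 in a fit with animal as the replicate block, since the same steers were bled each day. The fit of 30 means had no term for animal and took the libraries of a steer as independent. Standard errors were derived from the F-statistic. Log2 CPM for variance shares and correlations used a prior count of 2. The alternatives were RLE factors, DESeq2 1.42.0, a trended dispersion, no filter (26992 genes), a mean CPM of at least 1 (13695 genes), an FDR of 0.05, limma 3.58.1 with voom and a correlation of 0.320 within animals, no block, single days, mixed pens, healthy or BRD cattle alone, the library of animal 40 at day 60 left out, and animals left out in turn (12 of the 26 in the block fit, with the dispersion held).

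The 8 genes and the lists of pathway genes and cell markers were chosen with earlier results of these data known. Other genes named are the 3 PPAR genes, at most the 4 of smallest p per pathway list among those called at day 13, and the 5 most like CPT1A and PDK4. The marker genes named singly, ETFB, CPT2, PLIN4 and ABHD5 were picked after their values were seen. Of the pathway symbols, RXRG, PPARGC1A, ACADL, ABCD2, PLIN5 and FGF21 were not tested, and of the markers CSF3R, GP1BB and EPX were not used here. Some genes of these lists are not reported here.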

Additional observations from a re-analysis of the deposited data

Results flagged for a closer look

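For each of the 8 genes, the libraries of the same disease label, supplement and day were searched for one far from the rest in groups of 4 to 7 steers. A library was taken as far from the rest when its gap to the nearest other was above Dixon's 95% critical value as a share of the group's range, which chance alone gives in about 1 in 20 groups. This held in 13 of 192 groups: 3 for ACADVL, 2 for ACSL1, 2 for CPT1A, 3 for PDK4, 3 for PLIN2 and 0 for SLC25A20, HADHA and ETFDH.

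On day 0, CPT1A in healthy COMBO animal 6 was 383.8 CPM against 247.3 CPM in the next. PLIN2 was 160.0 CPM in BRD INR animal 43 against 72.33 CPM in the next, and 69.41 CPM in healthy INR animal 10 against 42.36 CPM. On day 13, PDK4 was 44.67 CPM in BRD INR animal 23 against 19.88 CPM and 40.32 CPM in healthy INR animal 7 against 13.73 CPM, and PLIN2 was 48.88 CPM in healthy COMBO animal 3 against 34.23 CPM.

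On day 28, animal 40 (BRD INR) was high for ACADVL, at 154.3 CPM against 118.2 CPM, and for ACSL1, at 33.57 CPM against 28.14 CPM. On day 45, healthy INR animal 7 was high for CPT1A, at 80.7 CPM against 49.86 CPM, and animal 30 of the same group was low for PDK4, at 7.976 CPM against 13.31 CPM. On day 60, ACADVL was 162.1 CPM in BRD INR animal 40 against 126.7 CPM and 134.6 CPM in BRD AAC animal 31 (the other 3 were close together), and ACSL1 was 22.11 CPM in BRD INR animal 43 against 27.81 CPM. The day 60 library of animal 40 is the one whose RNA was of lower integrity.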

How the results depend on the processing

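At day 13 the log2 change from day 0 lay between -1.65 and -1.53 for CPT1A, -2.70 and -2.54 for PDK4 and -1.03 and -0.99 for SLC25A20 when animals were left out, and moved by less than the spread between animals under each other alternative. Without the replicate block (the pairing by animal) 3995 genes in place of 6507 were called at day 13, and leaving out animals gave 5534 to 7090; of the wider pathway 20 to 24 were then lower and 16 to 18 higher. Of the 8 genes, 1 was called between BRD and healthy steers on day 0 within pens 2, 3, 4 and 8 (ACSL1), and leaving out animals gave 0 to 1 (PLIN2, without animal 16). For the difference of changes it gave 0 to 2 at day 13 and 0 to 1 at day 60, again through animal 16. For this and the other changes from day 0, only 12 of the 26 animals were left out in turn. Over the 15 supplement comparisons the count of 1 became 2 with DESeq2 or a mean CPM of at least 1, 0 with no filter, limma voom or an FDR of 0.05, 6 in BRD cattle alone and 0 to 4 without an animal (highest without animal 16). Counts over all genes were less stable. For BRD against healthy (5 over the 5 days) they were 235 with DESeq2, 14 with a mean CPM of at least 1, 11 without animal 40 at day 60, 8 with limma voom, 0 from single days, 677 within those pens, 2 at an FDR of 0.05 and 0 (without animal 54) to 309 (without animal 16). For the difference of changes (0) they were 165 with DESeq2 and 0 to 181 (without animal 16). For the supplements on day 0 they were 540 with DESeq2, 40 with no filter, 201 with a mean CPM of at least 1, 24 with limma voom, 0 in healthy and 3571 in BRD cattle alone, 26 at an FDR of 0.05 and 0 (without animal 21) to 1498 (without animal 16). For the supplements on the later days (193) they were 994 with DESeq2, 79 with no filter, 2711 in BRD cattle alone, 26 at an FDR of 0.05 and 20 (without animal 34) to 439 (without animal 3). Leaving out animal 16 left 2 BRD COMBO steers; the cause of the larger counts without it was not tested.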
